A study of Arabidopsis thaliana with 9 samples.

Results

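The regions described here are the 300 stretches of open chromatin that stood out most in the root hair nuclei of Arabidopsis thaliana roots, out of 20803 accessible regions in the accessibility table. Each column of that table, which holds 1 average per numbered nucleus cluster, was scaled to 10000. For each region the mean of clusters 1, 2 and 3 was divided by the mean of the other 18 clusters, with 0.1 added to each mean. The 300 regions with the highest ratio, 1.44% of all regions, were taken as members. The members were thus chosen by their accessibility in clusters 1, 2 and 3 against the rest, which is given below as a description with no test.

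All plants were Col-0 seedlings with no mutation or treatment named in the labels. Nuclei were released from the roots of 7-day-old seedlings and sorted, and gave 2 ATAC libraries, in which a transposase cuts open chromatin, and 5 RNA libraries. A separate pair of bulk RNA libraries came from 6-day-old seedlings, 1 from protoplasts, which are cells freed of their walls by enzymes, and 1 from intact root tips, although its title reads whole root. A table of whole-cell averages for 20 clusters, with no cluster 14, has no sample in the labels.

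The 2 ATAC libraries and the 5 RNA libraries were each pooled into 1 average per cluster before deposit. No value has a replicate error, the depth behind it is unknown, and no p-value can be given. Column totals of the accessibility table ran between 10532 and 14125. How ATAC nuclei received their cluster numbers is not given in the sources used here, so whether RNA helped to set them is unknown, and the RNA values below cannot be treated as independent of that assignment. Coordinates of regions are on the TAIR10 build and are printed as deposited; whether they count bases from 0 or 1 is not stated.

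Root hairs are tubular outgrowths of epidermal cells that take up water and nutrients. The transcription factor RHD6 and its relative RSL1 start the hair programme, and RSL2, RSL3 and RSL4 act after them. The hair then grows at its tip through ROP GTPase signalling, a polarised cytoskeleton and the secretion of wall proteins such as extensins and proline-rich proteins. Open chromatin marks stretches where the DNA is less covered by nucleosomes, often at promoters and other regulatory DNA.

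The label of clusters 1, 2 and 3 was set beside marker genes in the nucleus RNA, counted where the highest cluster reached 0.5 per 10000. The marker lists were chosen with earlier results of these data known, so this is a description and not an independent check. Of 22 root hair markers past that floor, 20 were 2-fold or more higher in clusters 1, 2 and 3 than in the other 18 on the scale with 0.1 added, with a median log2 ratio of 4.06, and 0 were 2-fold lower. Of 12 endodermis markers, 12 were 2-fold lower, as were 5 of 7 xylem, 4 of 5 phloem, 2 of 3 pericycle and 4 of 4 mitosis markers. Non-hair epidermis markers were mixed, with 1 of 8 higher and 1 of 8 lower. Of the 12975 genes past the floor and within 1000 bases of any region, 7.77% were higher and 23.4% lower.

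The members were open mainly in clusters 1 and 2. Median accessibility, in signal per 10000, was 1.52 in cluster 1 (interquartile range 1.17 to 2.08), 1.55 in cluster 2 (1.13 to 2.06) and 0.699 in cluster 3 (0.490 to 1.04). Over all regions the cluster medians lay between 0.428 and 0.471. Among the other clusters the members were highest in cluster 4, with a median of 0.484, and in cluster 6, with 0.472, and lowest in cluster 10, with 0.0919. Cluster 1 was 2-fold or more above the mean of the other 18 in 272 members, cluster 2 in 263 and cluster 3 in 132.

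**Figure D1:**
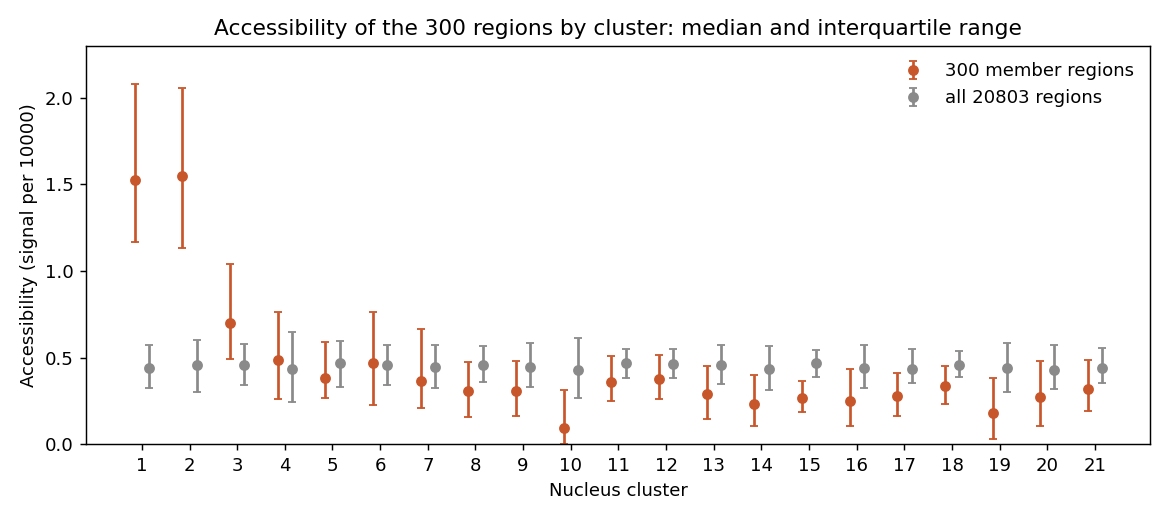
Accessibility in signal per 10000 for each nucleus cluster, as the median (point) and interquartile range (bar) over the 300 member regions in orange and over all 20803 regions in grey. The member medians of clusters 1 and 2 were 1.52 and 1.55, that of cluster 3 was 0.699, and that of cluster 10 was 0.0919.

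The combination of clusters differed among the members. Clusters 1 and 2 but not cluster 3 reached 2-fold in 150 members, and all of clusters 1, 2 and 3 did in 89. Clusters 1 and 3 without cluster 2 did so in 23 members and clusters 2 and 3 without cluster 1 in 16. A single cluster carried the ratio in the rest, which was cluster 1 in 10 members, cluster 2 in 8 and cluster 3 in 4. The highest value of a member lay in cluster 1 for 119, in cluster 2 for 123 and in cluster 3 for 25, where 4.18%, 5.77% and 2.81% of all regions were highest in these clusters. In the remaining 33 members another cluster was highest, and this was cluster 4, 5 or 6 in 26 of them, where 15.6%, 5.38% and 3.96% of all regions were. Every one of clusters 1, 2 and 3 was above every other cluster in 49 members, against 108 of all regions.

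Many members had no signal somewhere. At least 1 cluster was listed at 0 in 177 members (59%), against 14.5% of all regions. Cluster 10 was at 0 in 131 members (43.7%), against 8.47% of all regions, and at least 1 of clusters 1, 2 and 3 was itself at 0 in 18. Because the depth and the number of nuclei per cluster are unknown, a 0 cannot be read as closed chromatin.

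The member with the highest ratio, 11.1, was chr3:20203479-20204299, which overlapped AT3G54580. It had 4.41, 3.54 and 1.58 in clusters 1, 2 and 3, against a lowest value of 0.0478, a median of 0.104 and a highest value of 0.889, in cluster 4, among the other 18. All of clusters 1, 2 and 3 were above every other cluster. Nucleus RNA of AT3G54580 was 126, 32.7 and 13.1 per 10000 in clusters 1, 2 and 3, and its highest other cluster was cluster 4 with 24.3. The RNA of cluster 3 was thus below that of cluster 4, unlike the accessibility. A second member at this gene, at rank 29, had 2.36, 2.57 and 0.888 against at most 0.657, also in cluster 4.

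The second member, chr1:12616878-12618475, overlapped AT1G34510 and had 4.01, 3.73 and 0.360 in clusters 1, 2 and 3. The other 18 clusters ran from a lowest of 0 through a median of 0.213 to 0.519, in cluster 18, so cluster 3 lay among them. AT1G34510 RNA was 43.0, 11.4 and 2.82 per 10000 in clusters 1, 2 and 3, against at most 2.56, in cluster 4.

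ROPGEF3, which activates ROP GTPases at the site where a hair emerges, was overlapped by chr4:213572-214591. This region had 2.51, 3.27 and 2.01 in clusters 1, 2 and 3, against a median of 0.177 and a highest value of 1.93, in cluster 10, among the others. ROPGEF3 RNA was 0.377, 5.73 and 3.86 per 10000 in clusters 1, 2 and 3, and its highest other cluster was again cluster 10, with 3.09. Cluster 10, the lowest of all for the members as a set, was therefore high in both readouts at this gene.

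EXT10, an extensin of the root hair wall, lay at the members ranked 8 and 15 and within 1000 bases of another at its neighbour AT5G06630, described further on. Of the leading pair the shorter, chr5:2039940-2040210, had 4.53, 2.08 and 0 in clusters 1, 2 and 3 and was at 0 in 9 clusters. The longer, chr5:2040735-2042793, had 3.49, 2.02 and 0.849, against a lowest value of 0.118 and a highest of 0.481 among the other 18, so here the groups did not overlap. EXT10 RNA was 91.9, 16.1 and 4.97 per 10000 in clusters 1, 2 and 3, with 8.93 in cluster 4. Accessibility and RNA both ran in the order cluster 1, 2, 3.

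A further 5 of the 15 leading members lay at these genes. UMAMIT35, an amino acid transporter family member, overlapped the member ranked 7, which had 4.02, 3.24 and 0.487 in clusters 1, 2 and 3, with RNA of 1.49, 1.56 and 0.268 per 10000. RSH4, named root hair specific 4 in the gene table, lay at rank 11, with 2.16, 4.24 and 0.717 for accessibility and 1.07, 2.38 and 0.674 per 10000 for RNA. PPa3 was at rank 12 with 3.59, 2.09 and 1.23, and its RNA was 1.49, 1.74 and 2.21 per 10000. ABCA6, an ABC transporter, was at rank 5 with 3.46, 3.55 and 1.01, against at most 1.34 elsewhere, in cluster 7, and its RNA was 0.312, 1.11 and 0.440 per 10000. The cytochrome P450 gene CYP94D1 at rank 9 had 2.69, 5.26 and 0.138 for accessibility, and 1.57, 0.352 and 0.267 per 10000 for RNA. The order of clusters 1 and 2 was thus the same in both readouts at RSH4 and opposite at CYP94D1.

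The other 5 of the 15 leading members were a mixed group. AT1G52660 at rank 4 had RNA of 0.748, 0.627 and 0.640 per 10000 in clusters 1, 2 and 3, and AT1G01660 at rank 13 had 1.06, 3.59 and 0.424. AT1G51810 at rank 3 was near 0, with 0.0174 per 10000 in cluster 2 and 0 in clusters 1 and 3, although its region had 3.32, 3.69 and 0.923 for accessibility. At rank 6 a region of 75 bases in AT2G21440 had 6.02 in cluster 2 and was at 0 in 17 clusters, clusters 1 and 3 included. The member at rank 10 overlapped the nitrate transporter gene NRT2.2 and lay within 1000 bases of NRT2:1, with 3.45, 1.87 and 0.594 for accessibility in clusters 1, 2 and 3. Both transporters were listed at 0 in every nucleus cluster. In whole cells NRT2.2 had 0.0666, 0.0131 and 0.00137 per 10000 in clusters 1, 2 and 3, with at most 0.000562 in another cluster.

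The edge of the set was narrow. The last member, of 80 bases at AT1G33080, had a ratio of 2.255, and the first region left out had 2.254. The third region left out, with 2.248, overlapped RHD6 and had 0.783, 1.26 and 0.863 in clusters 1, 2 and 3. The median ratio was 2.76 over the members and 0.975 over all regions.

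RNA was then compared at the genes on or beside the members. Genes overlapping a member or within 1000 bases of either end of it numbered 454, of which 370 were protein coding. The nucleus RNA table held 328 of them, and 192 reached 0.5 per 10000 in their highest cluster; 136 did not and 126 were not in the table. Of the 192 genes, 112 (58.3%) were 2-fold or more higher in clusters 1, 2 and 3 than in the other 18, where 7.77% of the 12975 genes joined to any region were. At 2-fold lower there were 10 (5.21%), where 23.4% of genes joined to any region were. The median log2 ratio was 1.97 at the members and -0.47 over genes joined to any region, a difference of 2.44. The size depends on the floor and the pseudocount: without a floor 37.8% of 328 genes were higher and the median was 0.31, against 4.79% and -0.24 over genes joined to any region. With 0.5 added in place of 0.1 the share was 45.3% and the median 0.85, against 4.39% and -0.22. A 4-fold higher level was found for 94 genes (49%), against 3.19% of genes joined to any region.

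**Figure D2:**
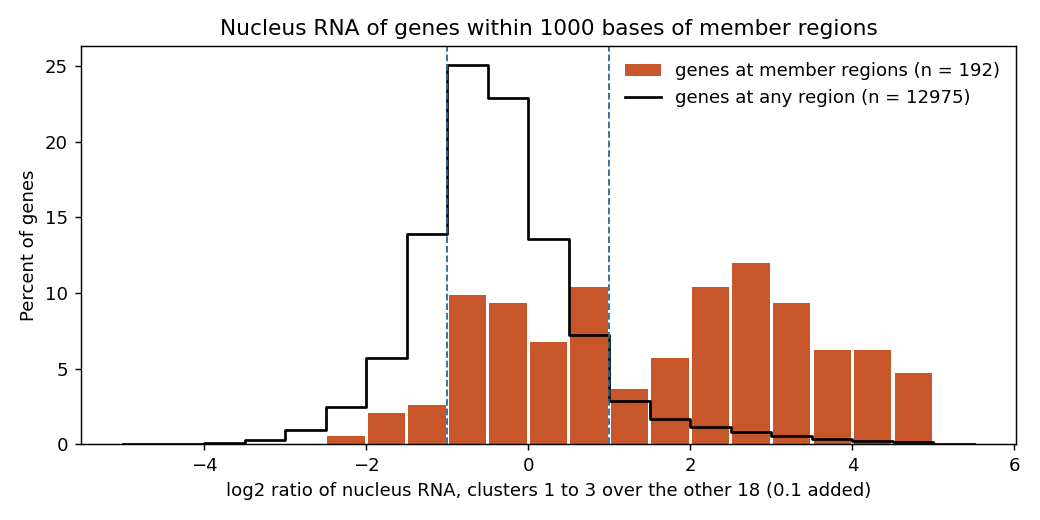
Share of genes in percent by log2 ratio of nucleus RNA in clusters 1, 2 and 3 over the other 18, for 192 genes joined to member regions (orange bars) and 12975 genes joined to any region (black outline); dashed lines mark 2-fold. The member genes form a broad upper group, with 112 beyond the 2-fold line, and a lower group around and below 0.

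Most of the higher genes peaked in cluster 2. Of the 112, RNA was highest in cluster 2 for 69 (61.6%), in cluster 1 for 33 (29.5%) and in cluster 3 for 6 (5.36%). Over the 1008 genes joined to any region and 2-fold higher, these shares were 45.7%, 30.9% and 13.1%. Every one of clusters 1, 2 and 3 was above every other cluster in 59 of the 112 (52.7%), where this held for 29.5% of the 1008 genes and for 2.44% of all 12975. Among the other clusters, cluster 4 was the highest in 52 of the 112, for which no share over the 1008 genes is given here. Accessibility was split more evenly, with the gene's member highest in cluster 1 for 49 and in cluster 2 for 48. Of the 49 genes whose member was highest in cluster 1, RNA was highest in cluster 1 for 16 and in cluster 2 for 29. Across the 112 genes the Spearman correlation between the cluster 1 to cluster 2 ratio of accessibility and that of RNA was 0.05, and it was 0.075 over all 12975 genes. These values are across genes, which are not independent replicates, and are given as a description.

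Whether the 2 readouts moved together apart from clusters 1, 2 and 3 was looked at over the other 18 clusters. The Spearman correlation of a member's accessibility with its gene's RNA over those 18 clusters had a median of 0.215 over the 192 genes and was above 0 in 144, with a median of 0.249 over all joined genes. Over all 21 clusters, which include those the choice used, the median was 0.374 at the members and 0.246 over all joined genes.

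The 12 genes with the largest RNA ratios had log2 ratios between 4.36 and 4.90. PRP1, a proline-rich wall protein of root hairs, had 39.6, 10.4 and 5.14 per 10000 in clusters 1, 2 and 3, against at most 1.197 elsewhere, in cluster 4, and the log2 ratio of 4.90. Its member, chr1:20503866-20506394, had 1.29, 1.69 and 0.787, against a lowest value of 0.227 and a highest of 0.699 among the others, so both readouts kept clusters 1, 2 and 3 above the rest. MOP10, also named proline-rich protein-like 1, followed with a log2 ratio of 4.85, and RNA of 49.8, 11.8 and 4.33 per 10000 against at most 2.76 elsewhere. Its highest ranked member, of 253 bases, did not separate the groups, with 2.60, 2.69 and 0 in clusters 1, 2 and 3 and 2.72 in cluster 6. Nor did the other, at rank 118, with 1.49, 1.71 and 0.796 against 1.501 in cluster 4.

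EXT13, an extensin, had a log2 RNA ratio of 4.81, with 54.4, 7.43 and 4.58 per 10000 in clusters 1, 2 and 3 against at most 2.05, in cluster 4. Accessibility there was 2.28, 1.34 and 0.510 against at most 0.565, in cluster 6, so cluster 3 fell just inside the range of the others. XTH12, a xyloglucan-modifying wall enzyme, had a log2 ratio of 4.71, and AT3G49960 and AT4G26010, which carry no name in the gene table, had 4.73 and 4.71. Extensin genes and the neighbouring XTH12 and XTH13 are repetitive or similar in sequence, so how reads were shared among them is uncertain.

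In 4 of these 12 genes, ROPGEF10, MRH2, ADF11 and RHS14, the RNA peak was in cluster 2. ROPGEF10, a ROP activator, had 1.90, 9.94 and 1.36 per 10000 in clusters 1, 2 and 3, against at most 0.271 elsewhere, a log2 ratio of 4.58. MRH2, a kinesin needed for root hair shape, had 2.32, 10.0 and 2.11 per 10000 against at most 0.369, a log2 ratio of 4.38, while its member was highest in cluster 1 with 2.11, 1.66 and 0.560. ADF11, an actin-depolymerizing factor, had the most even RNA among them, with 7.98, 10.4 and 8.25 per 10000 against at most 0.757 and a log2 ratio of 4.43. Its member lay 454 bases from the gene and had 3.03, 1.24 and 0.893, against at most 1.32, in cluster 19.

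**Figure D3:**
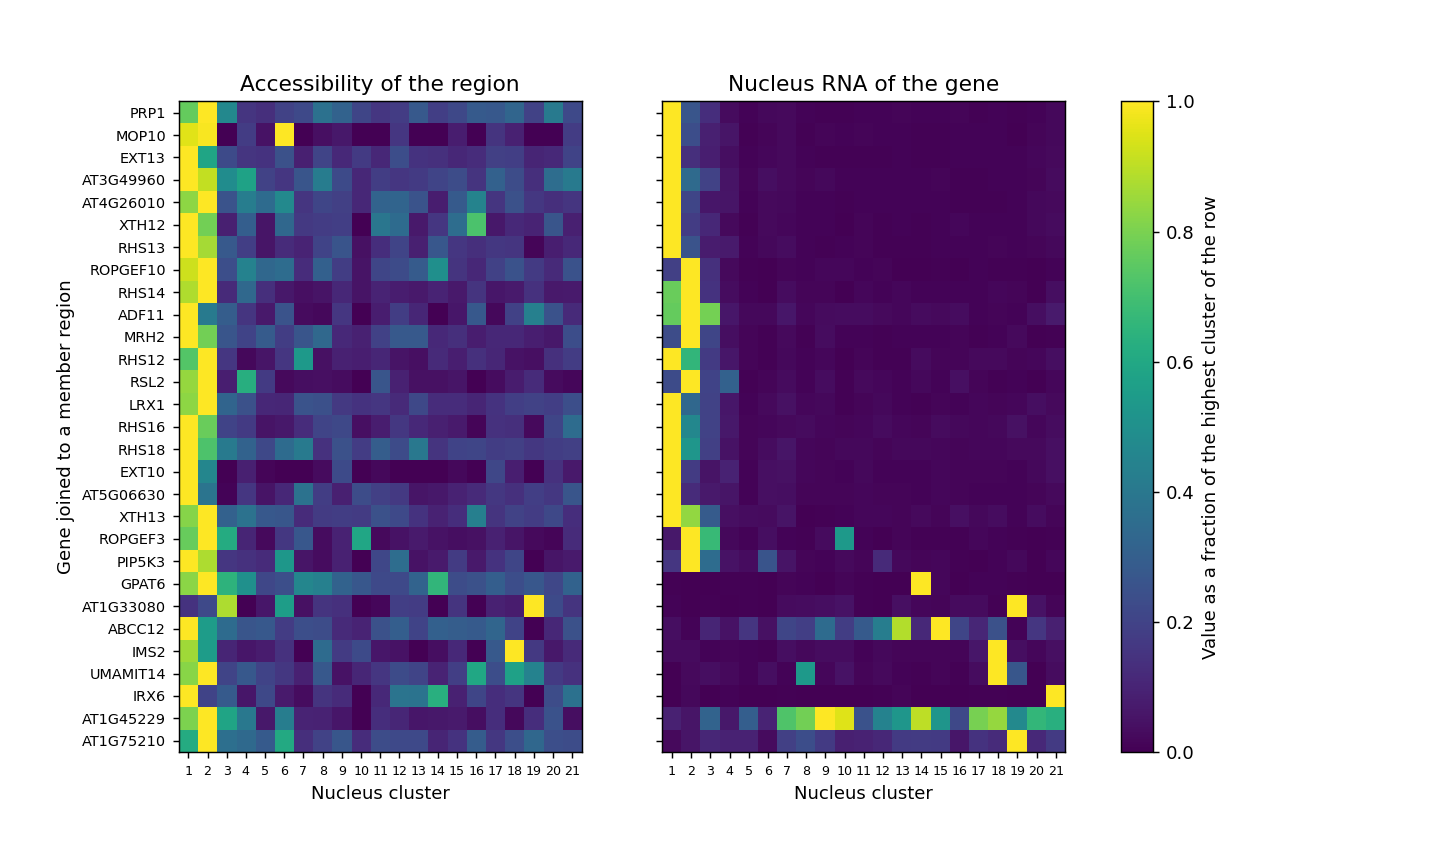
Accessibility of the highest ranked member region (left) and nucleus RNA (right) of the genes named by rule, over the 21 nucleus clusters, each row as a fraction of its highest cluster. The 12 genes with the highest RNA ratios and the listed root hair genes are bright mainly in clusters 1, 2 and 3 on the right, apart from such rows as ROPGEF3 with cluster 10, whereas signal in other clusters is common on the left; the last 8 rows are the genes with the lowest RNA ratios.

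Of 56 genes on the lists of root hair markers, root hair specific (RHS) genes, wall proteins and tip growth signalling, 53 lay within 1000 bases of a region and 16 of a member, where 1.41% of the 32288 genes near any region lay near a member. Of 40 genes on the lists for non-hair epidermis, endodermis, xylem, phloem, pericycle and mitosis, 39 lay near a region and 0 near a member.

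Among the 8 transcription factors on the root hair list, RHD6, RSL1 to RSL4 and LRL1 to LRL3, only RSL2 had a member within 1000 bases. LRL1 and LRL2 were highest in cluster 16 in both readouts, with log2 RNA ratios of 0.47 and -0.32, and LRL3 had 3.93. The higher ranked of the 2 adjacent members at RSL2, chr4:16238342-16239032, overlapped no gene. It had 2.32, 2.75 and 0.227 in clusters 1, 2 and 3. The other clusters had a median of 0.120 and a highest value of 1.73, in cluster 4. RSL2 RNA was 0.750, 3.30 and 0.658 per 10000, with 1.02 in cluster 4, a log2 ratio of 3.02. At this member, as in the RNA, cluster 2 was highest and cluster 4 was above cluster 3. The other RSL2 member, at rank 67, had 2.09, 1.57 and 0.880 in clusters 1, 2 and 3 and was highest in cluster 4, with 2.13. RSL4 lay at rank 418, in a region of 5018 bases with a ratio of 2.05, and its RNA was 1.98, 3.996 and 2.21 per 10000 against at most 0.278.

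At a wider distance RSL1 and RSL3 also had a member, a reading chosen after the values were seen. RSL1 lay between 1000 and 2000 bases from chr5:15039138-15039324, at rank 295, which had 0.705, 0.0800 and 1.86 in clusters 1, 2 and 3, against at most 0.837, in cluster 9. RSL1 RNA was 0.00871, 0.00590 and 0.624 per 10000, against at most 0.192, also in cluster 9. Cluster 3 was highest and cluster 9 was the highest of the other clusters in both readouts. RSL3, listed in the gene table as AT2G14760, lay at a similar distance from chr2:6324889-6327134, at rank 95, with 1.64, 1.93 and 0.604 against at most 1.46, in cluster 4. Its RNA stayed under the floor, with 0.126, 0.262 and 0.0438 per 10000.

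RHD6 itself was highest in cluster 3 in RNA but not in accessibility. Its RNA was 0.283, 0.420 and 1.43 per 10000 in clusters 1, 2 and 3, against at most 0.283 elsewhere, in cluster 9. Its highest ranked region had 0.783, 1.26 and 0.863 in clusters 1, 2 and 3. Cluster 6, with 1.02, was above clusters 1 and 3 there.

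Of 10 RHS genes, 5 had a member, and 10 of 10 were 2-fold higher in RNA, with a median log2 ratio of 4.35. RHS12, a pectin methylesterase, had RNA of 8.45, 5.56 and 1.43 per 10000 in clusters 1, 2 and 3, against at most 0.513, and a member with 2.52, 3.43 and 0.546 but 1.86 in cluster 7. RHS13 had RNA of 66.8, 17.1 and 4.998 against 4.95 in cluster 4, and a member with 2.37, 2.05 and 0.665 against at most 0.647. RHS14, a pectate lyase, had RNA of 5.46, 7.08 and 1.03 against at most 0.249, and a member with 2.89, 3.29 and 0.391 against 1.11 in cluster 4. At these members of RHS12 and RHS14 a cluster outside 1, 2 and 3 was above cluster 3, while clusters 1, 2 and 3 were separate in RNA. The second member of RHS12, at rank 127, had 1.61, 1.61 and 0.803 against at most 0.738, in cluster 7, so there clusters 1, 2 and 3 were above every other. RHS16, a receptor kinase, and RHS18, a peroxidase, had log2 RNA ratios of 3.82 and 4.34.

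Of 11 genes for wall proteins and enzymes, 10 lay near a region and 6 near a member, and all 10 tested in nucleus RNA were 2-fold higher, with a median log2 ratio of 4.32. AT5G06630, listed as EXT14, was adjacent to EXT10 and had RNA of 90.9, 11.03 and 6.30 per 10000, against at most 5.21, in cluster 4. Its member had 2.37, 0.908 and 0.0276, so cluster 3 was below every other cluster, the lowest of which had 0.127. XTH13 had RNA of 7.76, 6.49 and 2.22 per 10000 against at most 0.423. EXT11, a pseudogene in the gene table, had a member with 1.92, 2.298 and 0.749, against at most 0.709, and was not in the nucleus table.

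Of 12 tip growth signalling genes, 11 lay near a region and 2 near a member, ROPGEF3 and PIP5K3, and 7 of 10 tested were 2-fold higher, with a median log2 ratio of 1.40. PIP5K3, a lipid kinase at the hair tip, had RNA of 0.655, 4.16 and 1.48 per 10000, against 1.08 in cluster 6, and a member with 2.11, 1.84 and 0.335, against 1.12 in cluster 6. The same other cluster was highest in both readouts.

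Of 23 root hair markers, 3 had a member, namely RSL2, PRP1 and LRX1. LRX1, a wall protein with leucine-rich repeats and an extensin part, had RNA of 22.5, 7.49 and 4.45 per 10000 against at most 1.32, and a member with 1.82, 2.19 and 0.707 against at most 0.562. In both readouts clusters 1, 2 and 3 were above every other.

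The hair genes without a member mostly lay in long regions. Over the 4 hair lists the highest ranked region had a median length of 1328 bases for the 16 genes with a member and 6643 bases for the other 37. PRP3, a proline-rich wall protein, had RNA of 164, 29.3 and 9.23 per 10000 against at most 7.44, while its region of 10601 bases overlapped 6 genes and had 0.449, 0.351 and 0.383, a ratio of 0.860. EXPA7, an expansin, lay in a region of 8994 bases over 5 genes with a ratio of 1.09, and RHS19 in one of 41792 bases over 15 genes with a ratio of 0.779. COW1, a phosphatidylinositol transfer protein, was close to the edge of the set, with a region of 1272 bases at rank 321 and a ratio of 2.23. The part of region length in these ratios was not tested.

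**Figure D4:**
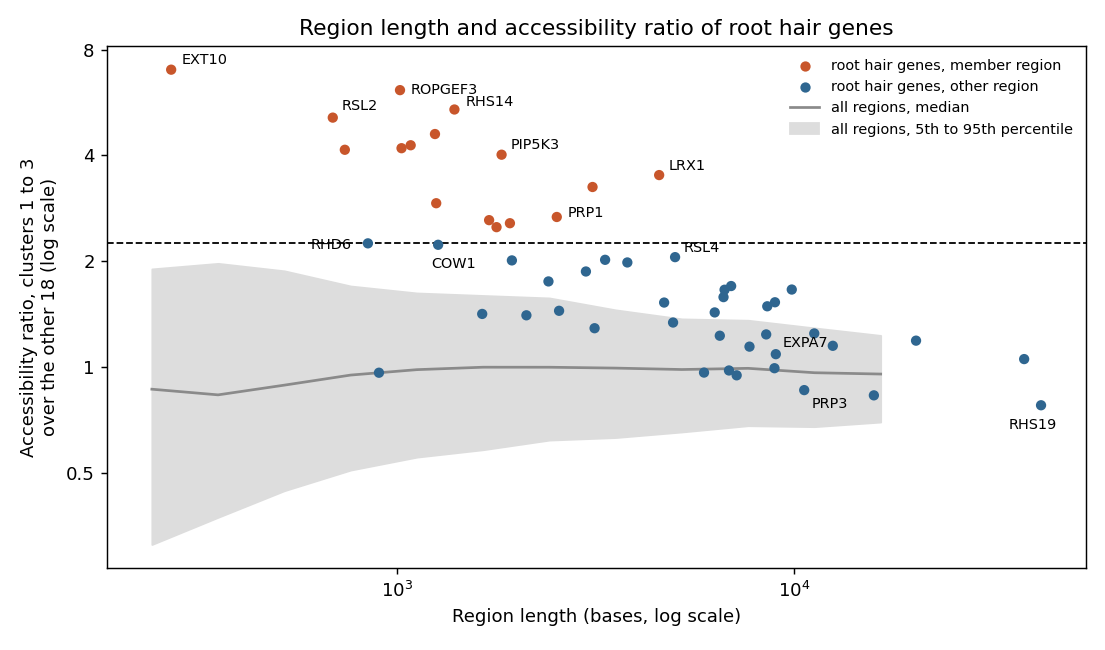
Accessibility ratio of clusters 1, 2 and 3 over the other 18 against region length in bases, both on log scales, for the highest ranked region of each listed root hair gene; orange points are members and blue points are not. The grey line and band give the median and the range between the 5th and 95th percentile over all regions, and the dashed line is the ratio of the last member, 2.255. The genes without a member, such as PRP3 and RHS19, lie mostly to the right.

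The same held over all genes. Of the 1008 genes with nucleus RNA 2-fold higher in clusters 1, 2 and 3, 112 (11.1%) had a member, where 1.48% of all genes past the floor did. The highest ranked region had a median length of 1265.5 bases for these 112 and 4771 bases for the other 896, whose median ratio was 1.28, against 1.05 over all genes past the floor.

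Members were shorter than regions in general. Their median length was 767.5 bases (interquartile range 415 to 1563, lowest 5, highest 6852), against 1715 bases for all regions (830.5 to 3564.5, lowest 4, highest 41792). Regions of up to 300 bases were members in 45 of 792 cases (5.68%), and regions over 3000 bases in 15 of 6289 (0.239%). The shortest members carried little RNA difference: at members of up to 300 bases 2 of 22 genes (9.09%) were 2-fold higher, and 44 of those 45 members had a cluster at 0. At 300 to 1000 bases 44 of 69 genes (63.8%) were higher, at 1000 to 3000 bases 60 of 91 (65.9%) and over 3000 bases 12 of 20 (60%). Over all regions of the same classes the shares were 3.99%, 6.71%, 7.33% and 7.74%.

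By rank, the share of genes with higher RNA was largest at the top. It was 52 of 71 (73.2%) for regions ranked 1 to 100, 33 of 56 (58.9%) for 101 to 200 and 27 of 65 (41.5%) for 201 to 300. Beyond the set it was 76 of 185 (41.1%) for the next 300 regions and 134 of 405 (33.1%) for ranks 601 to 1200, so there was no step at the edge.

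**Figure D5:**
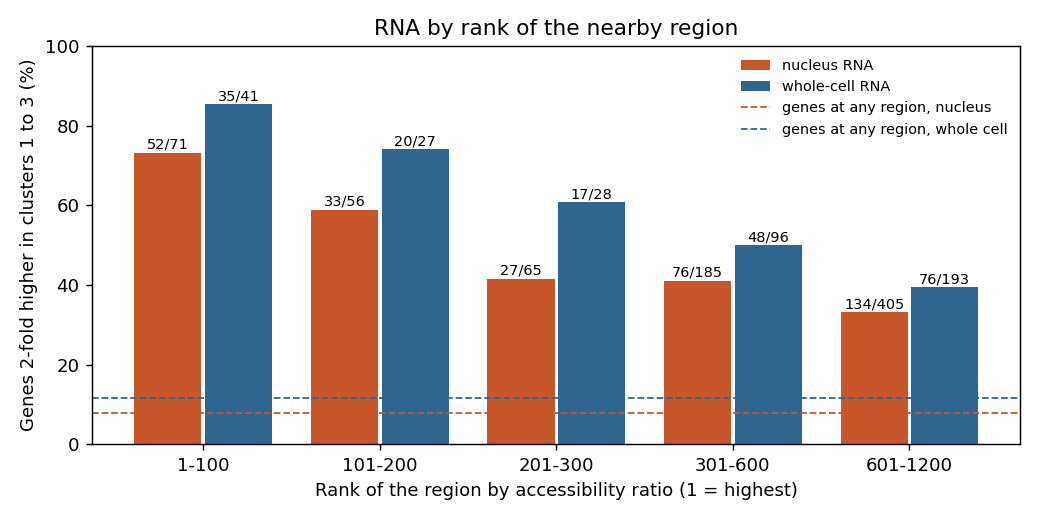
Share of genes in percent with RNA 2-fold higher in clusters 1, 2 and 3, by rank of the highest ranked region near the gene, for nucleus RNA (orange) and whole-cell RNA (blue), with the numbers of genes over the bars. Dashed lines give the shares over genes joined to any region, 7.77% and 11.5%. Nucleus shares were 73.2% for ranks 1 to 100 and 33.1% for ranks 601 to 1200.

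Region by region, 128 members (42.7%) had at least 1 gene with higher RNA, and these had a median length of 1330 bases. Another 53 had genes past the floor but none higher, with a median length of 425 bases, and 42 of those 53 had a cluster at 0. No gene past the floor was found at 59 and no gene of the nucleus table at 38, for which no share over all regions is given here. No gene lay within 1000 bases at 22 (7.33%), against 4.93% of all regions. Of the 181 members with a tested gene, 70.7% had a higher one, against 10.6% of all 13773 regions with a tested gene.

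The whole-cell table gave the same direction. Of 96 member genes past its floor, 72 (75%) were 2-fold higher in whole-cell clusters 1, 2 and 3 than in the other 17, where 11.5% of the 7283 genes joined to any region were. At 2-fold lower there were 5 (5.21%), where 29% of genes joined to any region were, and the median log2 ratio was 2.26, against -0.46. Of the 112 genes higher in nuclei, 69 passed the whole-cell floor and 66 of them were 2-fold higher there. RHS13 had 99.4, 18.5 and 2.29 per 10000 in whole-cell clusters 1, 2 and 3, against 3.097 in cluster 4, and PRP1 had 15.6, 4.16 and 0.773, against 0.948 in cluster 4. Cluster 4 was thus above cluster 3 for both genes in whole cells.

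In the bulk libraries the shares of member genes called were near those of genes in general. Of 185 genes that reached 5 FPKM in protoplasts or intact tips, 16 (8.65%) were 2-fold higher in protoplasts than in intact tips, where 11.2% of genes joined to any region were, and 48 (25.9%) were 2-fold lower, where 30.3% were. The median log2 ratio was -0.32 for the members and -0.46 for genes joined to any region, and with ratios centred on the median gene the split turned to 41 higher (22.2%) and 28 lower (15.1%). After the same centring 17.3% of genes joined to any region were higher and 18.8% lower, so the background moved too. In bulk RNA, fewer cells of a type and less RNA per cell cannot be told apart. Of the 16 listed hair genes with a member, 10 were 2-fold lower and 1 was higher, and after centring 6 were lower and 1 higher. PRP1 had 94.96 FPKM in protoplasts against 384 FPKM in intact tips, RHS18 had 34.7 against 249 FPKM, and XTH13 had 21.3 against 177 FPKM. ROPGEF3 went the other way, with 50.3 FPKM in protoplasts against 17.7 FPKM in intact tips.

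The 8 member genes with the lowest RNA ratios peaked elsewhere. GPAT6, an acyltransferase of cutin synthesis, had a log2 ratio of -2.35 and RNA of 8.55 per 10000 in cluster 14, against 0.0412, 0.0263 and 0 in clusters 1, 2 and 3. Its member, 616 bases away, had 1.196, 1.44 and 0.931 in clusters 1, 2 and 3, and its highest other cluster was also cluster 14, with 0.953. IMS2, also named MAM3, a glucosinolate synthesis enzyme, had a log2 ratio of -1.60 and RNA of 22.2 per 10000 in cluster 18, and its member was highest in cluster 18 with 1.63, against 1.40 in cluster 1. AT1G33080 had RNA of 4.92 per 10000 in cluster 19, and its member had 3.49 there. In 3 of the 8 genes the highest other cluster was thus the same in both readouts. IRX6, a secondary wall protein, had a log2 ratio of -1.45 with RNA of 4.27 per 10000 in cluster 21, UMAMIT14, an amino acid exporter, had -1.52, ABCC12 had -1.63, AT1G45229 had -1.35 and AT1G75210 had -1.13.

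By position, members held fewer genes than regions in general. Members were also shorter, at a median of 767.5 bases against 1715, and the part of length in the shares below was not tested. A gene was overlapped by 260 members (86.7%), against 89.5% of all regions, exactly 1 gene by 183 (61%), against 36.3%, and several by 77 (25.7%), against 53.1%. An end of a gene lay in 176 members (58.7%), against 79.3%, and 84 members (28%) lay inside a gene without either end, against 10.2%. The centre was within 500 bases of an end of a gene in 187 members (62.3%), against 62.2%. Strand and exons were not in the tables used here, so starts cannot be told from ends of genes. Members lay on chromosome 1 in 86 cases (28.7%), against 26.5% of all regions, and on chromosome 4 in 38 (12.7%), against 15.1%.

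Members often had another member next to them. A region directly before or after was also a member for 65 of the 300 (21.7%), and these made 37 adjacent pairs in 28 runs. Of all regions 1.44% were members, which is a share for a single region and not for either neighbour. The longest run, of 5 regions over 23495 bases at chr1:12616878-12640372, lay at AT1G34510, AT1G34520, CYP94D1 and AT1G34545. A run of 3 regions over 5356 bases, chr5:2037438-2042793, lay at AT5G06630 and EXT10. Pairs lay at RHS12, RHS16, RHS18, RSL2, MOP10 and SULTR1;1, and XTH12 and XTH13 shared one. Of 34 genes with more than 1 member, 24 passed the RNA floor and 20 (83.3%) were 2-fold higher. This share was 58.3% over all 192 member genes tested and 7.77% over genes joined to any region. The share over genes joined to more than 1 region of any kind is not given here. A split of one open stretch into several regions and separate openings cannot be told apart here.

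Several further genes with a member were named after their values were seen. SHV2, a GPI-anchored wall protein of root hairs, had RNA of 4.81, 1.97 and 2.26 per 10000 in clusters 1, 2 and 3, a log2 ratio of 4.10. RIC10, which binds active ROPs, had a log2 ratio of 3.95, and so did CSLC12, a xyloglucan backbone synthase. Among nutrient and ion carriers, the phosphate transporter PHT1;1 had RNA of 16.2, 6.49 and 1.16 per 10000 with a log2 ratio of 3.20. Its member at rank 183 was most open in cluster 5, with 1.56, against 1.16, 1.43 and 0.501 in clusters 1, 2 and 3. RNA of the sulfate transporter SULTR1;1 was 1.91, 0.379 and 0.460 per 10000 with a log2 ratio of 2.95. That of the cation channel CNGC14 was 1.79, 3.13 and 1.52 with 2.88. BGLU21, a beta-glucosidase, was one of 3 higher genes led by cluster 3 in both readouts, with 0.251, 0.531 and 2.58 for accessibility and 4.17, 1.96 and 43.8 per 10000 for RNA.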

How the data were processed

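The authors deposited average signal values by cluster, for regions from 2 pooled ATAC libraries and for genes in the nucleus and whole-cell RNA tables. The bulk table has no unit in its header; its values were taken as FPKM as deposited by the authors. The submitters' processing notes name Cell Ranger ATAC 1.2, Cell Ranger 3.1.0, Signac 0.2.5, Seurat 3.1.5, TopHat2 2.0.11, Bowtie2 2.1.0, SAMtools 0.1.19 and the TAIR10 build.

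In the accessibility table a region's mean over the 21 clusters varied little (interquartile range 0.582 to 0.656), so levels were compared between clusters within a region and not between regions. Nucleus RNA averages are not per length and were not compared between genes. Every cluster column of the accessibility table was scaled to 10000. RNA averages were used as deposited, and their values are read here as per 10000. Ratios are log2((mean of clusters 1, 2 and 3 + 0.1)/(mean of the others + 0.1)), which understates differences of low genes. RNA genes needed 0.5 per 10000 in the highest cluster; bulk ratios are log2(FPKM + 1) at 5 FPKM or more. Higher and lower mean 2-fold.

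Genes came from a RefSeq table of TAIR10.1, in which all 23241 genes of the nucleus table were found. It has no strand and no sequence came with it, so genes were joined within 1000 bases of either end in place of the planned distance before the start, and the planned motif search was not run.

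The members and the 10 gene lists (96 genes) were chosen with earlier results of these data known. Named by rule were the 15 regions with the highest ratio, the genes at the top (12) and bottom (8) of the nucleus RNA ratio, and listed genes at a member. Python 3.11.15, pandas 2.3.3, NumPy 2.4.6, SciPy 1.17.1 and Matplotlib 3.10.9 were used. The ratios were tested on simulated data, and the join was checked on a sample of the deposited regions against a direct comparison of every pair. Alternatives were other scalings, pseudocounts, floors, distances and numbers of regions.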

Additional observations from a re-analysis of the deposited data

How the results depend on the processing

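No paired analysis was possible because the libraries were pooled into 1 average per cluster before deposit, so no replicate could be paired or left out. Of 75 alternative values, 49 stayed close to the reported one (for counts, within 1.5 times) and 26 moved further. Only the median log2 ratio could change sign, and it did not in any alternative. Counts and shares have no sign, and the bulk split turned as given below. Ranking by the highest of the other 18 clusters in place of their mean kept 160 of the 300 regions. The 112 genes with higher nucleus RNA, 58.3% of those tested, became 67 (74.4%) with an RNA floor of 2 per 10000. With 150 regions they became 67 (69.1%) and with 600 regions 188 (49.9%). At the 123 members with no cluster at 0, an alternative chosen after seeing the data, they became 72 (66.7%). Without a floor the share was 37.8%. The median log2 ratio of 1.97 became 1.18 within 2000 bases, 0.85 with a pseudocount of 0.5, 0.31 without a floor, 3.13 with a floor of 2, 2.52 with 150 regions and 0.99 with 600, and 2.44 when centred on the median gene, also chosen after seeing the data. The 72 genes higher in whole cells became 35 with a floor of 2 and 46 at members with no cluster at 0. In bulk RNA the 16 genes higher in protoplasts became 26 without an FPKM floor and 41 when centred on the median gene, and the 48 lower became 27 with a floor of 20 FPKM and 28 when centred. The share of members with their centre near an end of a gene was 40% within 250 bases, against 41.3% of all regions. Within 1000 bases it was 77.7%, against 82.5%. Fewer genes tested accounts for the lower counts under higher floors; for the other moves the cause was not tested. The depth is unknown in every table, so short regions and low genes cannot be given an error.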

Other observations

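Some members lay at tRNA genes or had no gene within 1000 bases. A run of 3 adjacent members over 5405 bases, chr1:17157080-17162484, lay at tRNA genes and AT1G45229, whose RNA was 0.0839, 0.0542 and 0.297 per 10000 in clusters 1, 2 and 3, against a median of 0.536 over the other 18. The member ranked 22, part of this run, had 2.303, 2.87 and 1.68 in clusters 1, 2 and 3, against at most 1.21, in cluster 6. Identical tRNA copies make the sharing of reads there uncertain. Among the 454 genes joined to members, 34 were pseudogenes, 31 were long non-coding RNAs and 6 were tRNAs. The shares of these classes over all joined genes are not given here, so these counts cannot be called particular to the members. The member ranked 72, chr2:714316-714717, had no gene within 1000 bases and was led by cluster 3, with 0.862, 0.544 and 2.96 in clusters 1, 2 and 3, against at most 1.23, in cluster 6.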
